A study of Mus musculus with 10 samples.

Results

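Malat1, Neat1, Miat, Pvt1, Rmst and Sox2ot are 6 long noncoding RNAs (lncRNAs) described as nuclear, and they were followed among the 15899 genes of a RIP-seq experiment on the RNA-binding protein MEX3A. They were taken by the gene names in the deposited matrix, where 5 of the 6 were found by symbol and Rmst, listed there as RMST_1, by its Ensembl number (ENSMUSG00000112117). The 6 had been picked with their own values in FLAG against WT and in crosslinked against native libraries already known, so their values in these contrasts are given as a description with standard errors, and nothing is read from whether a member passed a test there.

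RIP-seq sequences the RNA that an antibody pulls down with a protein. The cells were neural stem cell (NSC) cultures grown as neurospheres with EGF and FGF from the subependymal zone, the neurogenic niche lining the lateral ventricles, of mice labelled 10 weeks of age. In the FLAG group the mice were Mex3aFLAG/FLAG, with a FLAG tag knocked in at both copies of the endogenous Mex3a gene, and the WT group was Mex3a+/+, so that the same anti-FLAG antibody gave the nonspecific background. Lysates were made after formaldehyde crosslinking (2 FLAG and 2 WT libraries) or in native conditions without it (3 FLAG and 3 WT libraries). All 10 libraries are pulldowns, and no input RNA is compared here. A value is therefore the amount of an RNA in the pulldown, in which a change in its level in the cells, or in the share of cells that make it, cannot be told apart from a change in how much of it was bound. Values are log2 normalized values as deposited, and a difference of 1 is a 2-fold change on that scale.

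LncRNAs are transcripts without a long open reading frame, and many of them stay in the nucleus. Malat1 is concentrated in nuclear speckles, the stores of splicing factors, and Neat1 is the architectural RNA around which paraspeckle proteins such as NONO and SFPQ assemble. MEX3A is mostly a cytoplasmic protein with KH domains that bind RNA.

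Malat1 and Neat1 are neighbours on the minus strand of chromosome 19 in GRCm38 (5795690 to 5802672 and 5824708 to 5845478), 22035 nt apart, and both are annotated as a single unspliced exon, of 6983 and 20771 nt. Both end in a conserved element in which U-rich stretches fold onto an A-rich tract as a triple helix, which protects a 3′ end that has no ordinary poly(A) tail. The element is shown because it sets these 2 RNAs apart in sequence from the rest of the matrix. In the lines below, read on the RNA strand from GRCm38.p6, capitals mark the 3 longest stretches of at least 11 nt that the last 400 nt of both transcripts have in common, which are 2 U-rich stretches and an A-rich one, in the same order in both.
Malat1 first U-rich stretch (chr19:5796045-5796073): taaaggttTTTCTTTTCCTGAgaaaacaa
Neat1 first U-rich stretch (chr19:5824777-5824805): cgcaggtgTTTCTTTTCCTGAccgcggct
Malat1 second U-rich stretch (chr19:5796011-5796040): ttgttttCTCAGGTTTTGCTTTTtggcctt
Neat1 second U-rich stretch (chr19:5824744-5824773): ggccgcgCTCAGGTTTTGCTTTTcaccttt
Malat1 A-rich stretch (chr19:5795973-5796001): ttaaaaaaaAAAAAGCAAAAgacgctggt
Neat1 A-rich stretch (chr19:5824699-5824727): gtgagcaggAAAAAGCAAAAggcactggt
The annotated Neat1 transcript stops at the last base of its A-rich capitals, whereas the annotated Malat1 transcript runs on for 292 nt. In the longest transcript of 15864 genes of the matrix, searched on its own strand, TTTCTTTTCCTGA was held by 14 genes (0.0883%), AAAAAGCAAAA by 180 (1.13%) and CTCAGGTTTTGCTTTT by 2 (0.0126%), which were Malat1 and Neat1. The stretches were taken from these 2 RNAs, so their own matches are a description.

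The other 4 RNAs are spliced or spread over longer loci. Miat, known from a nuclear body of its own in neurons, lies on chromosome 5 (112213228 to 112229395, minus strand), and exons cover 57.5% of its span. Pvt1, the neighbour of Myc and host of several small RNAs, lies on chromosome 15 (62037986 to 62378096, plus strand), and exons cover 2.06% of it. Sox2ot, on chromosome 3 (34104270 to 34682619, plus strand), carries the single-exon Sox2 gene within an intron, and exons cover 2.00% of it. Rmst, a neural lncRNA known as a partner of SOX2, lies on chromosome 10 (92071037 to 92165170, minus strand), with 7.89% of its span in exons.

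Each of the 6 longest transcripts held matches to the MEX-3 recognition element (MRE), the motif of C. elegans MEX-3 that the study searched for in mRNAs. The form of its methods was searched on the RNA strand: any letter but C, then G or T, then AG, a spacer, T, any letter but G, and TA. One match per RNA without a spacer is shown, with its 8 letters in capitals and 6 flanking bases on each side, on the RNA strand in GRCm38.
Malat1 (chr19:5800400-5800419, minus): ttgctgGTAGTTTActcttt
Neat1 (chr19:5840980-5840999, minus): ttggctTGAGTTTAtttact
Miat (chr5:112218618-112218637, minus): gtgtagGGAGTTTAggtgag
Pvt1 (chr15:62313445-62313464, plus): agttcaTGAGTCTAagagtt
Rmst (chr10:92134141-92134160, minus): ttagagTTAGTCTAttggat
Sox2ot (chr3:34678448-34678467, plus): ataggtAGAGTTTAttctgg
Allowing spacers of up to 8 nt, match density was 3.01 per kb in Malat1, 2.55 in Neat1, 2.29 in Miat, 3.01 in Pvt1, 3.80 in Rmst and 3.44 in Sox2ot, with a median of 1.76 over all 15864 transcripts and 2.17 over 546 lincRNA transcripts. All 6 lay above the median of all transcripts in this form, from the 64.0 percentile (Miat) to the 89.8 percentile (Rmst). The study searched the 3′ untranslated regions of mRNAs, whereas whole transcripts were searched here. Density was not adjusted for base composition, and the GC content of the members ran from 41.6% (Rmst) to 55.1% (Miat). The order of the members depended on the form and the sequence searched. With AT in place of the last TA, as the study also writes the motif, density was 1.81 in Pvt1 and 1.86 in Miat beside a median of 1.78 over all transcripts, and 2.58 to 3.11 in the other 4. Over all annotated exons it was 1.57 in Pvt1 and 2.07 to 3.23 in the other 5. A match of letters is a description of the sequence and not a binding site.

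Several libraries stood apart. FLAG native replicates 1 and 3 had 329 and 178 genes tied at their lowest value, against at most 3 in the others, and FLAG native replicate 2 received the lowest array weight (0.189). Sex-linked transcripts differed between libraries and in part followed genotype. Ddx3y, Eif2s3y, Kdm5d and Uty, genes of the Y chromosome chosen after their values were seen, had a summed log2 value of 7.78 in WT crosslinked replicate 1 and of 6.83 to 7.74 in WT native libraries, but of -1.34 in WT crosslinked replicate 2, and of -2.01 to 3.68 in the FLAG libraries. The cultures kept an NSC character: 9 of 10 stem and progenitor markers were in the matrix (Gfap was not) and their summed log2 value ranged from 10.98 to 11.51. Of 5 neuronal markers 2 were measured, and of these Rbfox3 was 1.31 lower in FLAG on the log2 scale over all libraries (limma, adjusted p = 0.0127; 0.0503 without WT native replicate 1). In 2 settings added after the data had been seen it did not pass the test. It was 1.27 lower without WT crosslinked replicate 1 and WT native replicates 1 and 3, and 1.31 lower without FLAG native replicates 1 and 3. Mex3a itself was at 3.92 and 4.16 in FLAG against 2.75 and 3.03 in WT crosslinked libraries, and at 5.95, 4.03 and 6.10 against 3.33, 3.52 and 2.89 in native ones.

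**Figure D1:**
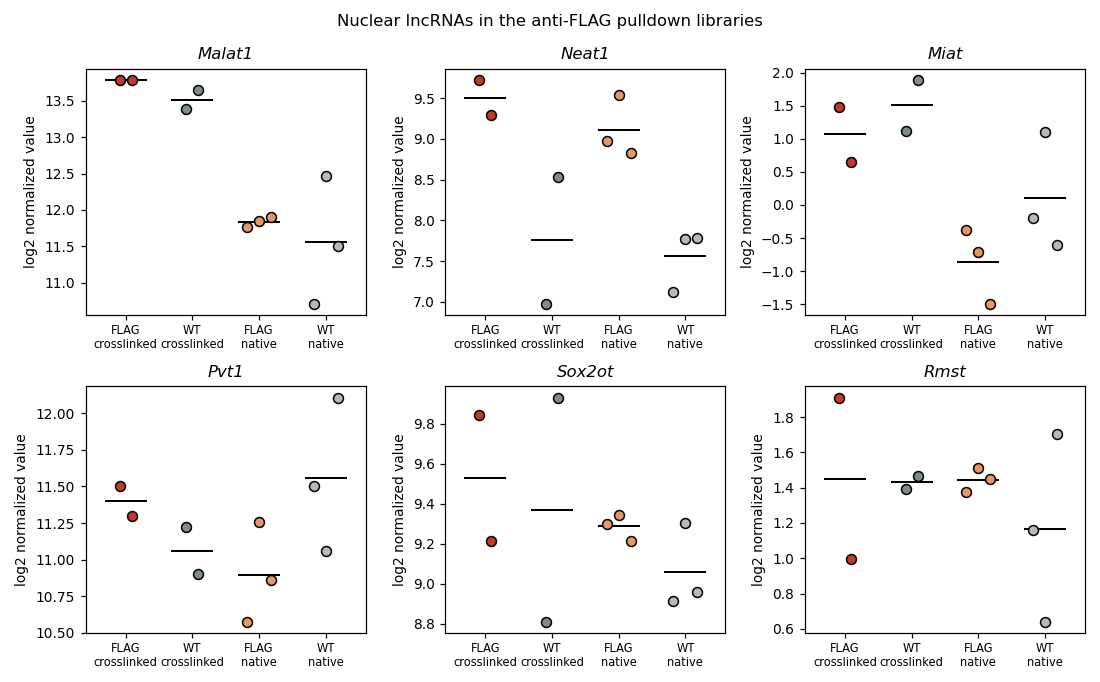
Log2 normalized values of the 6 lncRNAs. Each point is 1 library, ordered by replicate number within its group, each bar is the group mean, and the vertical axis has its own range in each panel. Neat1 was higher in FLAG than in WT in both protocols, and Malat1 and Miat were higher in crosslinked than in native libraries in both genotypes.

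Malat1 was among the most abundant RNAs of the pulldown. By its mean log2 value it ranked 10 of 15899 genes, and its rank in single libraries ran from 4 to 41. Pvt1 ranked 24, Sox2ot 125 and Neat1 222, so 4 of the 6 were among the highest genes, whereas Rmst ranked 11855 and Miat 14303. WT libraries, which hold no tagged protein, contained them as well: Malat1 was at 13.39 and 13.64 there with crosslinking.

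Per kb of exons, the mean log2 level over 10 libraries was 9.68 in Malat1, 8.42 in Pvt1, 5.75 in Sox2ot, 4.08 in Neat1, -1.53 in Rmst and -2.93 in Miat. Malat1 was above Pvt1 in 8 of 10 libraries and Rmst above Miat in 8 of 10, so these neighbours in the order did not separate in every library, while the other neighbours did in 10 of 10. Per kb of gene span the order differed, since Pvt1 dropped to 2.82, Sox2ot to 0.11, Miat to -3.73 and Rmst to -5.20, and Neat1, at 4.08 on both scales, became the second. Neat1 was then above Pvt1 in 7 of 10 libraries. Which of these lengths applies depends on whether intronic reads were counted, a setting that is not given in the sources used here.

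**Figure D2:**
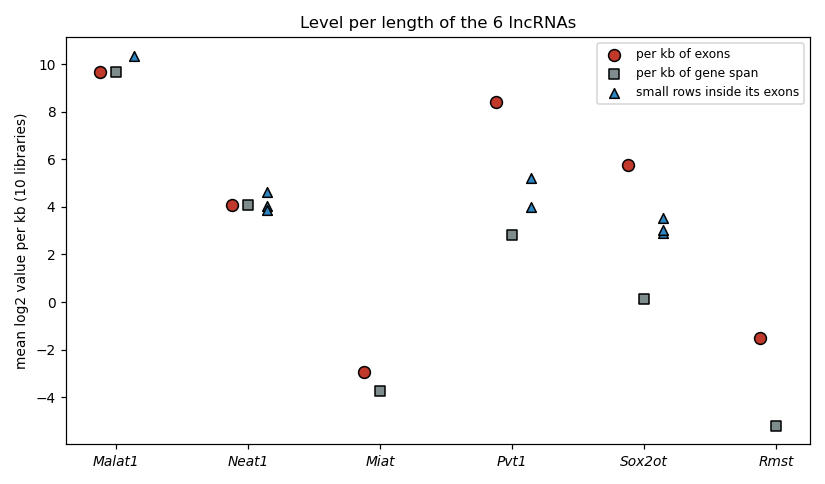
Mean log2 value per kb over 10 libraries. Circles divide by the length of all annotated exons, squares by the whole gene span, and triangles are small same-strand rows of the matrix that lie entirely within exons of the lncRNA. For Malat1 (9.68) and Neat1 (4.08) both lengths agree and the small rows sit near them, whereas for Pvt1 and Sox2ot the small rows sit below the exonic level.

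The comparison of FLAG with WT addresses which RNAs the tagged protein carried into the pulldown above the nonspecific background. Neat1 stood out among the 6. With crosslinking its log2 values were 9.72 and 9.29 in FLAG against 6.98 and 8.53 in WT. In native conditions they were 8.98, 9.54 and 8.82 in FLAG against 7.13, 7.77 and 7.78 in WT. The FLAG libraries therefore lay above the WT libraries without overlap in both protocols, as did those of 4.84% of all genes, and Neat1 was the 1 member that did so. In the native libraries alone it was again the 1 member, beside 8.62% of all genes.

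The log2 difference of Neat1 was 1.75 ± 0.57 (SE, 2 against 2 libraries) with crosslinking and 1.55 ± 0.25 (SE, 3 against 3) in native conditions. With both protocols in 1 fit it was 1.63 ± 0.28, or 3.10-fold higher in FLAG, while the central 90% of all genes lay between -0.75 and 0.84. The 2 protocols differed in this by -0.20 ± 0.59 (native minus crosslinked), within the error. WT crosslinked replicate 1 held the lowest Neat1 value, and it was also one of the libraries with high Y-linked values. Without the 3 WT libraries in which Y-linked genes were high and Xist was low (crosslinked 1, native 1 and native 3), a setting added after the data had been seen, the difference was 0.98 with crosslinking, 1.34 in native conditions and 1.17 ± 0.23 over all libraries. This leaves 1 WT library in each protocol, so that within a protocol the spread comes from the FLAG libraries alone and the lone WT library is assumed to vary like them. It also keeps WT native replicate 2, whose Y-linked sum was 6.83 beside an Xist value of 7.63.

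**Figure D3:**
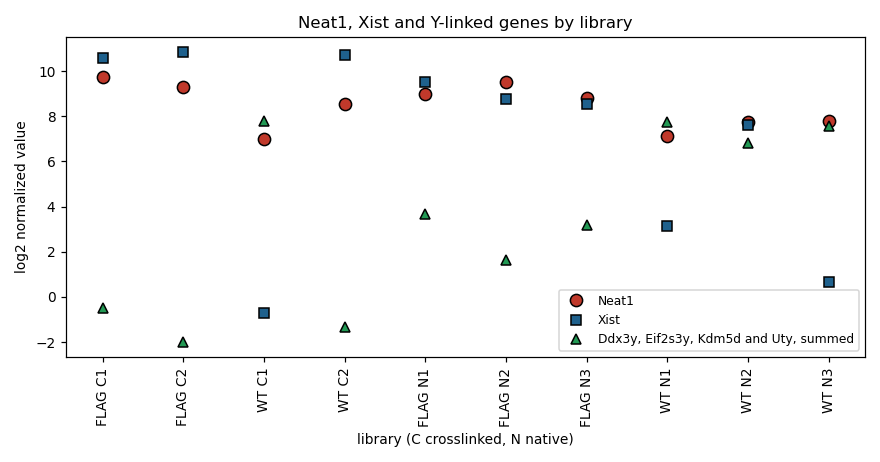
Log2 normalized values of Neat1, of Xist and of the summed Y-linked genes Ddx3y, Eif2s3y, Kdm5d and Uty in each library (C crosslinked, N native). Neat1 was between 8.82 and 9.72 in FLAG and between 6.98 and 8.53 in WT, and Xist was low where the Y-linked sum was high in WT C1, N1 and N3, whereas WT N2 had 7.63 for Xist and 6.83 for the sum.

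Xist, the nuclear lncRNA that coats the inactive X chromosome, was between 8.56 and 10.9 in the 5 FLAG libraries. In WT it was -0.71 and 10.7 with crosslinking, and 3.13, 7.63 and 0.68 in native conditions. WT crosslinked replicate 2, in which Xist was as high as in FLAG and the Y-linked sum was -1.34, had the highest Neat1 value of the WT libraries, 8.53, which still lay below every FLAG library. What the difference in sex-linked transcripts contributes to Neat1 beyond these values was not tested. Of the neuronal markers 1 followed genotype too. The summed log2 value of the 2 measured was 3.16 to 4.05 in FLAG and 4.63 to 4.69 in WT with crosslinking, and 3.22 to 3.72 against 4.59 to 4.96 in native conditions, with Dcx, Tubb3 and Stmn2 not in the matrix. Rbfox3 carried most of this sum, since Snap25, at a mean log2 value of 1.24, overlapped between FLAG and WT in both protocols and did not pass the test over all libraries (limma, adjusted p = 0.270). Their part in the Neat1 values was not tested.

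The remaining 5 RNAs differed less between FLAG and WT. Malat1 was at 13.79 in both FLAG crosslinked libraries against 13.39 and 13.64 in WT, and at 11.77, 11.84 and 11.91 against 10.71, 12.46 and 11.50 in native conditions. The crosslinked values stand for rank 4 in both FLAG libraries and for ranks 6 and 5 in WT. Its FLAG libraries were thus above WT with crosslinking, which held for 19.1% of all genes, and lay within the range of WT without it. The log2 difference was 0.27 ± 0.20 (SE, 2 against 2) with crosslinking and 0.28 ± 0.37 (SE, 3 against 3) in native conditions. The native direction turned with the libraries used: it was -0.14 without WT native replicate 1 and 0.73 without WT native replicate 2, and without the 3 WT libraries of high Y-linked and low Xist values it was -0.63, and -0.26 over all libraries.

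Sox2ot was at 9.85 and 9.22 in FLAG against 8.81 and 9.93 in WT with crosslinking, and at 9.30, 9.35 and 9.22 against 8.91, 9.31 and 8.96 in native conditions. The groups overlapped in both protocols, with log2 differences of 0.16 ± 0.46 and 0.23 ± 0.16, which were -0.40 and -0.02 without those 3 WT libraries. Rmst overlapped as well, at 0.64 to 1.91 over all 10 libraries, with differences of 0.02 ± 0.35 and 0.28 ± 0.36. Miat, near the low end of the matrix, was 0.43 ± 0.42 lower in FLAG with crosslinking and 0.97 ± 0.62 lower in native conditions on the log2 scale, and its groups overlapped in both.

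Pvt1 went opposite ways in the 2 protocols. With crosslinking it was at 11.50 and 11.30 in FLAG and at 11.22 and 10.90 in WT, a log2 difference of 0.34 ± 0.18. In native conditions it was at 10.58, 11.26 and 10.86 in FLAG and at 11.50, 11.06 and 12.11 in WT, a difference of -0.66 ± 0.28. The FLAG libraries lay above WT in the first case and overlapped WT in the second, and the difference between the protocols was -1.001 ± 0.42. With 0% of the 15899 genes called for a difference between the protocols (limma; 37 were higher and 29 lower at an unadjusted p under 0.05 and a size over 0.58), this is a description of Pvt1 and not a result of the test.

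Neat1 was the 1 member called over all libraries (limma, adjusted p under 0.05 over all genes and a log2 difference over 0.58), beside 0.264% of all genes called higher in FLAG, and since its values had led to its being chosen nothing is read from that call. The call was kept without FLAG native replicate 2 or without WT crosslinked replicate 2 and was lost when any 1 of the other 8 libraries was left out, while the log2 difference stayed between 1.37 and 1.85. None of the 6 was called with crosslinking alone, where 0% of all genes were (442 were higher and 157 lower at an unadjusted p under 0.05 and the same size), or in native conditions alone, where 0.107% were. Without FLAG native replicate 2, Neat1 was called in native conditions too, but so were 9.12% of all genes in the same direction.

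**Figure D4:**
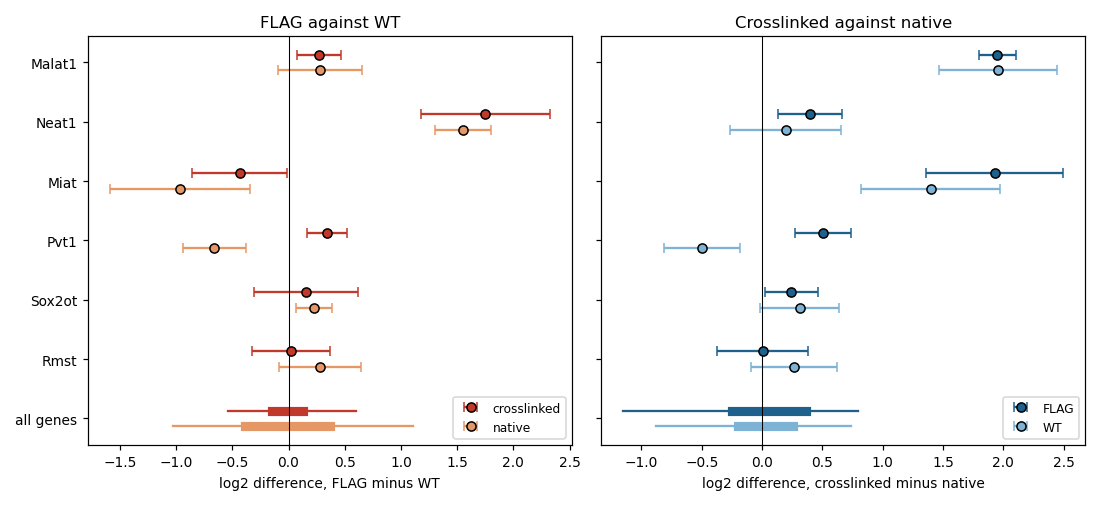
Log2 differences of the 6 lncRNAs, FLAG minus WT in each protocol (left) and crosslinked minus native in each genotype (right). Points are group differences, whiskers their SE, and the lowest pair of lines gives all 15899 genes, with the thick bar from the lower to the upper quartile and the thin line from the 5 to the 95 percentile. Neat1 (1.75 and 1.55) lay beyond the thin line on the left, and Malat1 (1.95 and 1.96) and Miat (1.93 and 1.40) did so on the right. Miat lies near the low end of the matrix.

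The comparison of crosslinked with native libraries addresses how the makeup of the pulldown differed with formaldehyde, with or without the tagged protein. The values have nearly the same distribution in every library, so they are relative to the other RNAs of that library. Malat1 was higher with crosslinking in both genotypes: its log2 values were 13.39 to 13.79 in the 4 crosslinked and 10.71 to 12.46 in the 6 native libraries, without overlap. The log2 difference was 1.96 ± 0.49 in WT and 1.95 ± 0.15 in FLAG, or 3.88-fold over all libraries. Malat1 took 1.13 to 1.49% of the summed linear values of a library with crosslinking and 0.176 to 0.595% without it. That sum was 9.49e+05 in each library, and a value followed from the rank: Malat1 and Pvt1 both read 11.50 where they ranked 22. The shares and log2 differences of Malat1 are thus steps between ranks, 4 to 6 with crosslinking and 12 to 41 without it. Both FLAG crosslinked libraries had rank 4 and so the same value, which keeps the SE of 0.15 in FLAG small. In the WT libraries, which carry no tag, the log2 difference of Malat1 was as large as in the FLAG libraries within the error (they differed by 0.01 ± 0.55).

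Miat was higher with crosslinking as well, at 0.65 to 1.89 in the crosslinked libraries, -1.49 to -0.38 in FLAG native and -0.60 to 1.11 in WT native libraries. Its log2 difference was 1.40 ± 0.58 in WT and 1.93 ± 0.57 in FLAG, and it did not overlap within either genotype. Miat lies near the low end of the matrix, and the lowest values of FLAG native replicates 1 and 3 were -1.70 and -1.99. In WT the closest crosslinked and native values were 1.116 and 1.106. Among the alternatives the difference was as low as 0.25 in either genotype. Malat1 and Miat were the 2 members whose crosslinked libraries lay above the native ones in both genotypes, as did those of 8.3% of all genes. In FLAG alone 17.9% of all genes lay above, and in WT alone 17.3%. Both lay far above the median of all genes in this contrast, 0.06 over all libraries, and of 552 lincRNAs, 0.14.

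Neat1, by contrast, was little different between the protocols, with log2 differences of 0.20 ± 0.46 in WT and 0.40 ± 0.26 in FLAG and overlapping groups in both. Sox2ot (0.31 ± 0.33 and 0.24 ± 0.22) and Rmst (0.26 ± 0.36 and 0.01 ± 0.38) overlapped likewise. Pvt1 was 0.50 ± 0.23 higher with crosslinking in FLAG, without overlap, and 0.50 ± 0.32 lower in WT, with overlap. Called over all libraries were Malat1 and Miat, 2 of the 6, beside 1.17% of all genes called higher with crosslinking, and since their values had led to their being chosen nothing is read from these calls. The call of Miat was lost when any 1 of 7 libraries was left out, and that of Malat1 in none of the 10 cases. Malat1 was also the 1 called in FLAG alone, beside 0.0189% of genes higher, a call lost without FLAG crosslinked replicate 1 or 2 or FLAG native replicate 1 or 3, and none was called in WT alone, where 0.0252% were.

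Small annotated genes that lie inside the members gave separate rows of the matrix, 22 rows in or across 5 of the 6 loci, and so a second view of the same stretches. Their reads may partly be the same as those of the host, so they are not independent of it. Neat1 held 3 such rows on its own strand, Gm28006, Gm27505 and Gm27533, which begin 441, 731 and 1041 nt from its start, in the stretch that its short and long isoforms have in common. With crosslinking they were 1.68 ± 0.55, 1.42 ± 0.44 and 1.62 ± 0.77 higher in FLAG on the log2 scale, and the groups did not overlap in any of the 3. In native conditions Gm27505 and Gm27533 were 1.57 ± 0.57 and 1.76 ± 0.45 higher without overlap, and Gm28006 was 0.97 ± 0.49 higher with overlap. Their mean log2 level per kb (4.64, 3.88 and 4.02) was close to the 4.08 of the whole Neat1 gene.

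Malat1 held Gm27694 on its own strand, and Gm20417 and Gm37376 on the opposite strand. All 3 were higher in crosslinked than in native libraries without overlap in both genotypes, with log2 differences over all libraries of 2.33 ± 0.30, 1.72 ± 0.32 and 1.22 ± 0.30. The mean log2 level per kb of the opposite-strand rows, 9.76 and 10.1, was close to the 9.68 of Malat1. Likewise Xist and its antisense partner Tsix differed by at most 0.31 on the log2 scale in any library, so these values do not tell the strands of overlapping genes apart. Miat has the antisense gene Gm26953, whose values followed those of Miat across the 10 libraries (Pearson's r = 0.99, a description over libraries that share groups).

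**Figure D5:**
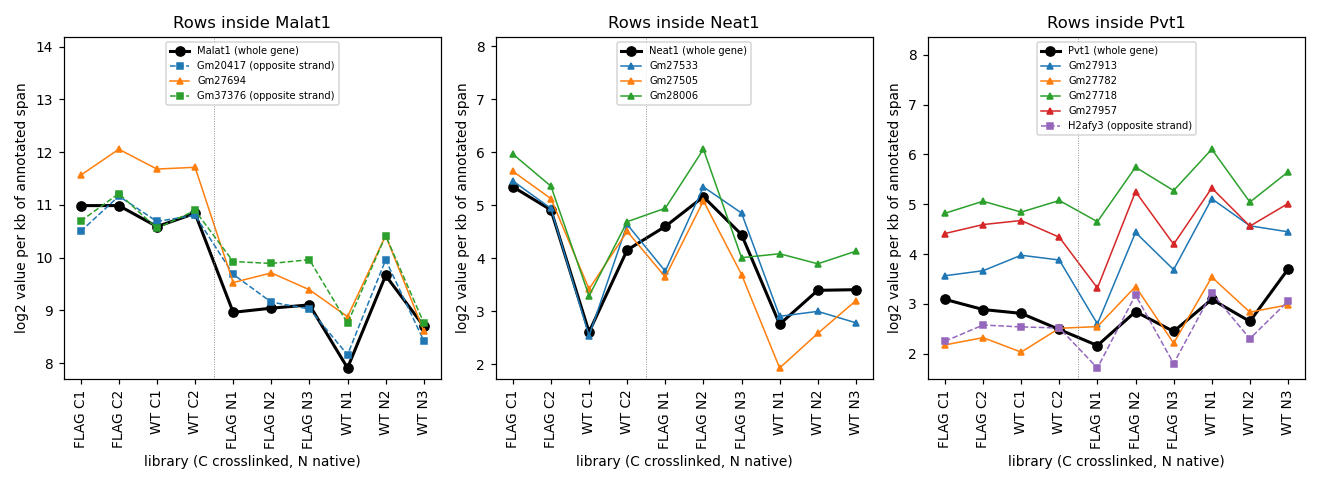
Log2 value per kb of annotated span of Malat1, Neat1 and Pvt1 (black) and of the rows of the matrix inside them, in each library (C crosslinked, N native). Dashed lines are rows on the opposite strand and the dotted vertical line parts the protocols. The rows inside Malat1 were, like it, lower in native than in crosslinked libraries, and those inside Neat1 were at their lowest in WT libraries.

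In Pvt1 the 5 inner rows behaved less uniformly. Gm27913, 43 nt from its start, was lower in FLAG than in WT on average in both protocols (-0.31 ± 0.14 and -1.13 ± 0.48). The higher Pvt1 value of FLAG with crosslinking was thus not seen there. Its groups did not overlap in either protocol, but the share of all genes lying below WT in this way was not counted. The other 4 overlapped in both protocols, though each was lower in FLAG on average in native conditions (-0.71 to -0.38). Over the 5 rows the mean log2 level per kb ran from 2.52 to 5.23, nearer to the 2.82 of Pvt1 per kb of span than to the 8.42 per kb of exons.

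Sox2ot carried 10 rows. Of these Sox2, the transcription factor gene of neural stem cells, was at 4.12 and 4.24 in FLAG against 3.13 and 3.76 in WT with crosslinking, and at 4.80, 4.01 and 5.25 against 3.54, 3.71 and 3.39 in native conditions. It was higher in FLAG without overlap in both protocols, by 0.73 ± 0.24 and 1.14 ± 0.31, but did not pass the test over all libraries (limma, adjusted p = 0.0865). Sox2 shares no exon with Sox2ot, whose own groups overlapped, and across the 10 libraries the values of the 2 genes had a Pearson's r of 0.28.

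Across libraries the 6 RNAs did not move as one. The highest Pearson's r between members over the 10 libraries was 0.77, for Malat1 and Miat, followed by 0.66 for Neat1 and Sox2ot, and the lowest was -0.31, for Pvt1 and Sox2ot. The 10 libraries share groups and one normalization, so these values describe the pattern only. The genes with a pattern most like that of Malat1 were Ttc14 (r = 0.97), Srek1 (0.97) and Ccnt2 (0.97). Those most like Neat1 included Rab3gap2 (0.96) and Flt1 (0.95), and those most like Miat included Elp6 (0.98) and Trmt1 (0.96). Pvt1 was most like Ctnnd2 (0.98), Magi1 (0.93) and Grip1 (0.93), and Sox2ot most like Cpeb1 (0.98), Stk39 (0.97) and Nav3 (0.97). For Rmst the likeness was weaker, with Snap91 (0.88), 3110009E18Rik (0.83) and Slc15a2 (0.81).

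Genes that encode proteins of the same nuclear bodies were set beside the members. Their values are of mRNAs and not of the proteins. Of 17 genes for paraspeckle proteins, the partners of Neat1, 16 were measured and 0 passed the test in FLAG against WT in either direction, with a median log2 difference of 0.18 over all libraries beside -0.03 for all genes. At an unadjusted p under 0.05 and a size over 0.58 the count was also 0, beside 12.5% of all genes (1151 higher and 840 lower). Among them Nono, which encodes an essential paraspeckle protein, differed by 0.36 (limma, adjusted p = 0.251) and Sfpq by 0.36 (adjusted p = 0.387). With crosslinking against native, 3 of the 16 rose and 0 fell, beside the 1.17% of all genes that rose, and the median log2 difference was 0.19 beside 0.06 for all genes. The 3 were Hnrnph3 (0.66 ± 0.14, limma adjusted p = 0.0235), Taf15 (0.64 ± 0.11, adjusted p = 0.0101) and Cpsf7 (0.73 ± 0.16, adjusted p = 0.0273). The count was 0 without FLAG crosslinked replicate 1 or 2 and 1 without WT crosslinked replicate 1 or 2 or WT native replicate 1. Same-numbered crosslinked and native libraries of a genotype deviated together, and with the replicate number within each genotype as a block the count was 0 as well, while 70 genes in all were called higher in place of 186. There Taf15 (limma, adjusted p = 0.0484) fell short in size at 0.57 and the adjusted p was 0.0799 for Hnrnph3 and 0.0710 for Cpsf7.

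Of 21 genes for nuclear speckle proteins, the surroundings of Malat1, all were measured and 0 passed the test in FLAG against WT (limma; 0 at an unadjusted p under 0.05 and a size over 0.58, beside the same 12.5% of all genes), with a median of 0.17. With crosslinking 6 of the 21 rose and 0 fell, beside the 1.17% of all genes that rose, and the median log2 difference was 0.47 beside 0.06 for all genes. These were the kinases Clk1 (1.02 ± 0.24, limma adjusted p = 0.0390) and Clk4 (0.95 ± 0.19, adjusted p = 0.0189), which phosphorylate SR proteins, the SR protein genes Srsf11 (0.78 ± 0.14, adjusted p = 0.0139) and Srsf3 (0.66 ± 0.16, adjusted p = 0.0459), U2af1 (0.63 ± 0.16, adjusted p = 0.0473), which recognises the 3′ splice site, and Pnisr (0.60 ± 0.14, adjusted p = 0.0339). All 6 differences were smaller than the 1.96 ± 0.26 of Malat1. The count rested on few libraries: it was 0 when any 1 of the 4 crosslinked libraries was left out, and 1 or 2 without WT native replicate 1, WT native replicate 3 or FLAG native replicate 3, whereas the median stayed between 0.37 and 0.61. With the replicate block within genotype 2 of the 6 passed, Clk4 (limma, adjusted p = 0.0484) and Srsf11 (adjusted p = 0.0318), while the adjusted p of the other 4 was between 0.0807 and 0.116 and the median was 0.46. With the replicate number alone as a block, which also joins FLAG with WT libraries, 0 passed.

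Other lncRNAs were looked at in the same way. Of 24 further nuclear or chromatin-associated lncRNAs 18 were measured, and 0 passed the test over all libraries in FLAG against WT (limma; 5 were higher and 1 lower at an unadjusted p under 0.05 and a size over 0.58, beside 12.5% of all genes) or in crosslinked against native (3 higher and 1 lower, beside 11.6% of all genes). The 5 include Xist and Tsix, which are not told apart by strand and were lowest in the 3 WT libraries named above in which Y-linked values were high and Xist low. Six3os1, of the same list, was also lowest in those 3 libraries. It was at 1.64, 1.68 and 1.34 there and at 5.32 to 7.09 in the others. The median crosslinked minus native difference of the 18 was 0.31, and 15 of them were above 0. Kcnq1ot1, the antisense RNA of an imprinted cluster, differed by 0.38 ± 0.16 (limma, adjusted p = 0.207) and Firre by 0.53 ± 0.14 (adjusted p = 0.0556). Of 19 mainly cytoplasmic or snoRNA-host lncRNAs 15 were measured, in 16 rows. Of these rows 1 rose with crosslinking, Gas5 (0.79 ± 0.17, limma adjusted p = 0.0299), a host of snoRNAs, and the median was 0.70. Gas5 no longer passed without FLAG crosslinked replicate 1 or 2, WT crosslinked replicate 1, or WT native replicate 1 or 3 (0.68 to 0.82), or with the replicate block within genotype (limma, adjusted p = 0.116). In FLAG against WT 0 of the 16 rows passed (limma; 1 was higher at an unadjusted p under 0.05 and a size over 0.58).

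Of 11 genes known as protein partners or chromosomal neighbours of the members, 0 passed the test in FLAG against WT (limma; 1 was higher at an unadjusted p under 0.05 and a size over 0.58) or in crosslinked against native (1 lower). Frmd8, near the Malat1 and Neat1 locus, differed by 0.25 (limma, adjusted p = 0.389) between FLAG and WT over all libraries, beside the 1.63 ± 0.28 of Neat1. Myc, next to Pvt1, differed by 0.57 (adjusted p = 0.191), and Qk, an RNA-binding protein known to bind Miat, by 0.23 (adjusted p = 0.284).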

How the data were processed

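The authors deposited 1 matrix of log2 normalized values for 15899 genes in 10 libraries. Per the study's methods, the reads, trimmed by Cutadapt and Trimmomatic, were aligned by HISAT2 against GRCm38, and featureCounts gave counts of the GENCODE genes. For normalization the authors name DESeq2 in the methods and limma in the labels, and the deposited values have nearly the same distribution in every library. The matrix gives no whole read counts back, so the depth of each library and its counting error are not known from these values. The values were used as deposited in limma 3.58.1 (R 4.3.3; lmFit, eBayes with trend), for FLAG against WT and crosslinked against native libraries, each within and across the other factor, and for the difference between protocols. Genes were called at a Benjamini-Hochberg adjusted p under 0.05 over all genes and a log2 difference over 0.58 in size. The labels do not say which libraries come from separate cultures, so p-values measure the spread between these libraries. The study calls them biological replicates. Same-numbered crosslinked and native libraries of a genotype deviated together from their group means (r = 0.15 to 0.39, 4 pairs), a pairing that the labels do not state, and same-numbered FLAG and WT libraries did not.

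The 6 members and all gene lists were chosen with earlier results of these data known. Named genes were the members, the listed genes that passed the test or that flank or partner a member, the rows inside the members, and the 3 genes most like each member by Pearson's r among genes with a mean log2 of at least 1. Some of these genes are not reported here. Exons and transcripts came from GENCODE M21 (15864 genes matched) and sequences from GRCm38 and GRCm38.p6. The motif was searched as letters without a score. Fits and motif search were tested on simulated data. Python 3.11.15, pandas 2.3.3, numpy 2.4.6, pysam 0.24.0 and matplotlib 3.10.9 were used. Alternatives were offsets of 1 and 8 on the linear scale, a minimum mean, renormalization, other moderation, array weights, 1 fit of 4 groups, a replicate block (across or, added later, within genotypes) and libraries left out.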

Additional observations from a re-analysis of the deposited data

Results flagged for a closer look

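Pvt1 went opposite ways in the protocols and in the genotypes. In the crosslinked libraries each FLAG library lay above the WT mean, with a mean log2 difference of 0.34, and in the native libraries each FLAG library lay below it, with a mean of -0.66. Seen the other way, each FLAG crosslinked library lay above the FLAG native mean (0.50) and each WT crosslinked library lay below the WT native mean (-0.50). These are the same 10 values read along both factors. The limma contrast for the difference between protocols called no gene. Groups of 2 or 3 libraries are too small to mark a single library as outlying.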

How the results depend on the processing

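The sign of the log2 difference of Neat1 between FLAG and WT was kept in all 22 alternatives over all libraries (1.17 to 2.20). Between protocols that of Malat1 was kept in all 23 (1.72 to 2.16) and that of Miat in the 22 that test it (0.25 to 1.92). The counts of members called were less stable. In FLAG against WT over all libraries the count was 1 and became 0 with eBayes without trend, with 1 fit of 4 groups, with the replicate block, without the 3 WT libraries of high Y-linked and low Xist values and without FLAG native replicates 1 and 3 together, the last 2 chosen after seeing the data, and ranged from 0 to 1 when single libraries were left out. In native libraries it was 0, became 1 with robust eBayes and with array weights, and ranged from 0 to 1 when single libraries were left out. In crosslinked against native libraries it was 1 in FLAG, became 0 with eBayes without trend, with 1 fit of 4 groups and without FLAG native replicates 1 and 3 together, and ranged from 0 to 1 when single libraries were left out. Over all libraries it was 2 and became 1 with an offset of 8, with a minimum mean log2 of 1 (which removes Miat), with 1 fit of 4 groups, with the replicate block, with the block within genotype, which was added after seeing the data, without the 3 WT libraries and without FLAG native replicates 1 and 3 together, and ranged from 1 to 2 when single libraries were left out. The cause was not tested. The counts in the crosslinked libraries, in WT and for the difference between protocols stayed at 0.

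Genes called also varied: over all libraries FLAG against WT called 42 genes higher and 37 lower, and from 0 to 1105 and 0 to 964 in the alternatives, highest with array weights, and crosslinked against native called 186 higher and 467 lower, and from 14 to 1034 and 129 to 994. The native comparison called 0 higher and 17 lower, and at most 1656 and 1921, with array weights. Calls among genes for speckle proteins ranged from 0 to 13 and for paraspeckle proteins from 0 to 7. Deviations from the group means of same-numbered libraries had a correlation of -0.27 between FLAG and WT in the crosslinked protocol and -0.15, -0.43 and -0.17 in the native one, so the numbers did not pair the genotypes. Between crosslinked and native libraries it was 0.18 and 0.15 in FLAG and 0.30 and 0.39 in WT, where the 2 crosslinked deviations of a genotype mirror each other. Paired in this way, crosslinked against native called 70 genes higher and 375 lower over all libraries, 56 and 378 in FLAG (3 and 8 without the block) and 27 and 115 in WT (4 and 2). The crossed pairing, added after seeing the data, called 0 genes in the crosslinked libraries. MRE density of Pvt1 was 1.57 per kb over all exons and 1.81 with the other form of the motif, against 3.01, and that of Sox2ot was 2.07 over all exons, against 3.44. The depth of each library cannot be read from the matrix, so no limit from depth is given.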
